A study of Homo sapiens with 6 samples.

Results

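The ABC efflux transporters of drugs and conjugates described here are 9 genes, ABCC1, ABCC2, ABCC3, ABCC4, ABCC5, ABCC6, ABCC10, ABCB1 and ABCG2, of 61541 genes in the count table. They were chosen by symbol, and each symbol was matched to its Ensembl gene. All 9 were measured by RNA-seq in luciferases-expressing HepG2 cells, a human hepatoblastoma line. Both groups carry the same 2 reporters on a mouse artificial chromosome vector, SLR3 luciferase driven by antioxidant response elements (AREs) with a TK promoter and ELuc luciferase driven by the TK promoter alone. The sedanolide group received 100 μM sedanolide, a phthalide of celery, for 24 h (3 libraries), and the other group is labelled as control (3 libraries). Sedanolide was kept as a stock in DMSO, and what the control cells received is not given in the sources used here. Nothing says that the libraries of a group came from separate cultures, so the p-values measure the spread between these libraries, which may be technical.

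ABC transporters are membrane pumps that use the energy of ATP hydrolysis to move substrates across a membrane. Members of the ABCC family export glutathione, glucuronide and sulfate conjugates, the products of phase II drug metabolism, whereas ABCB1 and ABCG2 export many unconjugated drugs. In hepatocytes ABCC2, ABCB1 and ABCG2 lie in the canalicular membrane that faces bile, and ABCC3 and ABCC4 lie in the basolateral membrane that faces blood. The transcription factor NRF2, which KEAP1 holds in check, binds AREs and is known to act on several genes of this family.

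The libraries held 16420258 to 26714853 expected counts. The first principal component of all tested genes placed controls 1 and 2 with sedanolide 3 (side A) and control 3 with sedanolides 1 and 2 (side B), a split that the labels do not name. Mitochondrial genes took 1.43% to 2.15% of counts on side A and 4.23% to 5.22% on side B. Of 11 hepatocyte markers, all 11 passed the filter on low counts. Albumin lay between 803 and 1249 normalized CPM (read counts scaled by edgeR to a common library size), and its log2 fold change of -0.43 was not called. None of the 11 was called in edgeR, limma-voom or DESeq2, 3 had an unadjusted p under 0.05 in edgeR (TTR at -0.53, FGB at -0.45 and albumin), and 10 of the 11 log2 fold changes were negative, with a median of -0.24. Of all 14104 genes tested, 1681 had such a p, and the median was 0.0057. The groups of the markers did not overlap for 4 of 11, all with sedanolide below, beside 9.66% of all genes tested. Their summed CPM ranged from 31525 to 47526 in controls and from 23441 to 40348 with sedanolide. The part of these markers in the results below was not tested. Of 7 markers of other cell types, VWF and COL1A2 were at 0 in every library, PTPRC, COL1A1 and KRT7 did not exceed 0.40 CPM, and CD68 and PECAM1 lay between 3.77 and 14.7 CPM. CD68 was at 13.9, 8.85 and 11.3 CPM in controls and at 14.7, 14.7 and 14.2 CPM with sedanolide. Its groups did not overlap, beside 8.69% of all genes tested with sedanolide above, and those of PECAM1 did. The log2 fold change of CD68 was 0.36 and was not called. It shares 1765 exonic bases with a noncoding gene on the same strand. In bulk libraries, a change in the number of cells of a type and a change in RNA per cell cannot be told apart.

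ABCC3 was the only member called in the main edgeR fit, and it was higher with sedanolide. The study names it among the NRF2 downstream genes that were upregulated in these same libraries, so its direction is not independent evidence. ABCC3 (ENSG00000108846, chr17:50634777-50692253 on the plus strand, GRCh38) encodes the basolateral exporter of glucuronides and bile salts. It had 200, 277 and 227 expected counts in the controls and 865, 1025 and 1041 with sedanolide. In normalized CPM the controls were at 12.1, 11.7 and 12.8 and the sedanolide libraries at 46.5, 39.6 and 41.3. The groups were far apart, and each sedanolide library exceeded each control. The means were 12.2 ± 0.557 and 42.5 ± 3.61 CPM (SD, n = 3), a 3.47-fold difference. The log2 fold change was 1.80 ± 0.12 (SE), with an adjusted p of 0.00324 in the quasi-likelihood test of edgeR (Benjamini-Hochberg over 14104 genes and reporters). It ranked 4 of 14104 by p-value. Measured within each side of the split, the difference was 1.78 on side A and 1.73 on side B on the log2 scale. The call was lost without control 1 (adjusted p = 0.0634, edgeR) and without sedanolide 2 (adjusted p = 0.0766, edgeR), while the log2 fold change stayed between 1.72 and 1.83 in the fits that left out each library in turn.

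Of the 9 members, 1 was called at a false discovery rate of 0.05 and a fold change of 1.5, beside 0.674% of all genes tested (0.362% higher, 95 genes in all with 51 higher and 44 lower). ABCG2 was among the 9 tested because the sedanolide group alone lifted it over the low-count filter, so counts over the members lend its direction no support. The sedanolide libraries were all above the controls for ABCC2, ABCC3, ABCC4 and ABCG2 and all below them for ABCC6 and ABCC10. Across all genes tested, groups did not overlap for 18.3%, with sedanolide above in 8.69% and below in 9.66%. The median log2 fold change was 0.28 over the 9 members, ABCG2 included, and 0.0057 over all genes tested. That 0.28 is the value of ABCC1, whose groups overlapped and whose standard error was as large (0.28). No shift of the members as a set is read from it.

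**Figure D1:**
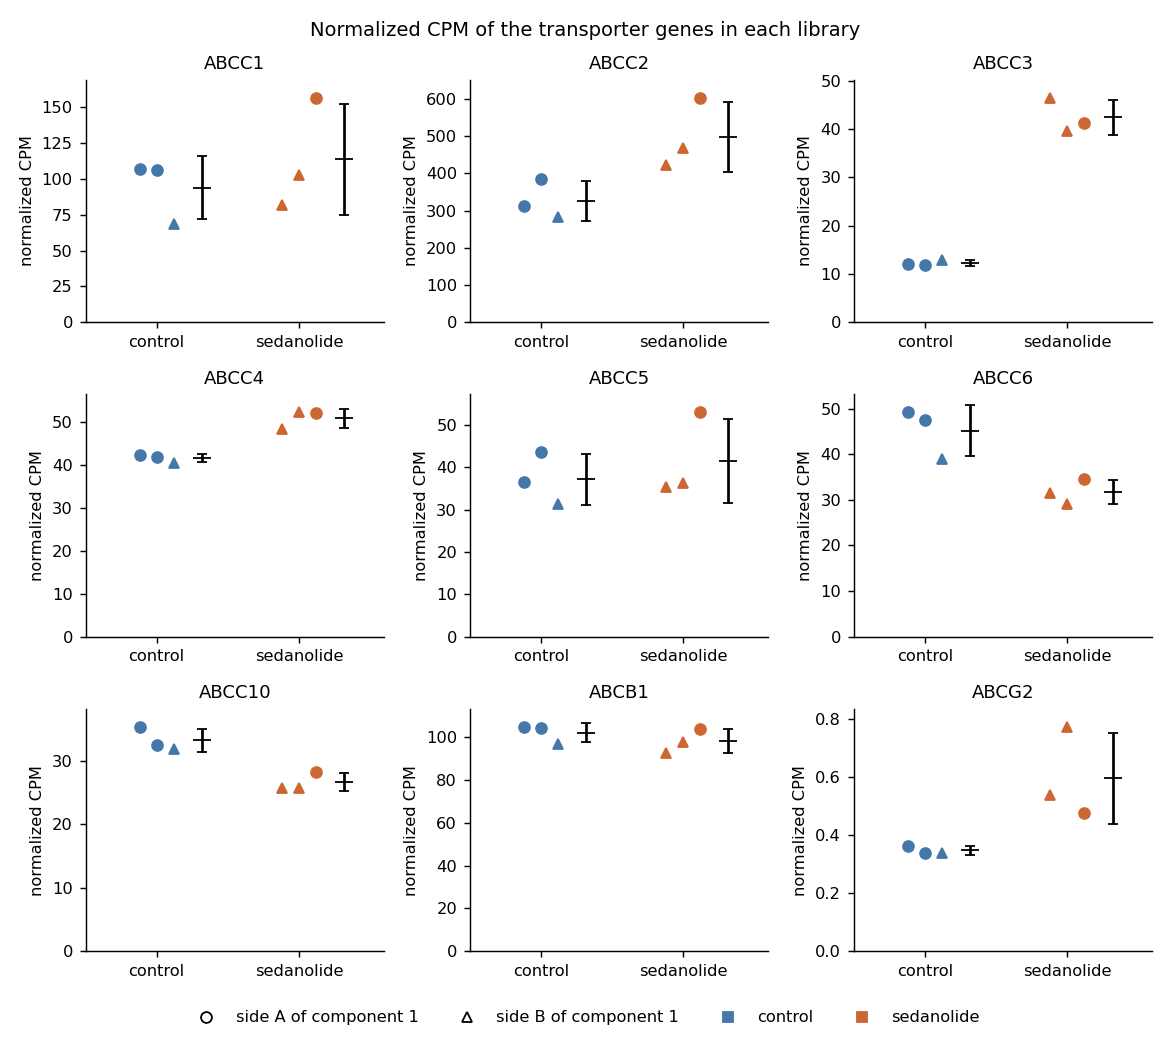
Normalized CPM of the 9 transporter genes in each library, with mean and SD (n = 3) to the right of each group. Circles are libraries on side A of the first principal component and triangles those on side B. ABCC3 shows the largest fold difference, at 11.7 to 12.8 CPM in controls and 39.6 to 46.5 CPM with sedanolide.

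ABCC2 (ENSG00000023839, chr10:99782640-99852594, plus strand) encodes the canalicular exporter of conjugated bilirubin and glutathione conjugates, and it was the most abundant member. Its controls were at 312, 385 and 282 CPM and its sedanolide libraries at 422, 469 and 604 CPM. The groups did not overlap, with means of 326 ± 53.1 and 498 ± 94.4 CPM (SD, n = 3). The log2 fold change of 0.61 ± 0.18 (SE) was not called (adjusted p = 0.255, edgeR, Benjamini-Hochberg). Within side A the sedanolide library was 0.80 higher on the log2 scale, and within side B the difference was 0.66. With the side as a term in the edgeR fit, ABCC2 was called, with a log2 fold change of 0.73 ± 0.11 (SE) and an adjusted p of 0.00752. That fit called 2 of the 9 members, ABCC2 and ABCC3, beside 2.7% of all genes tested. The side was read from the same libraries and is no label of the study.

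ABCC4 (ENSG00000125257, chr13:95019835-95301475, minus strand) encodes a basolateral exporter of bile salts and cyclic nucleotides. Its controls were at 42.3, 41.9 and 40.6 CPM and its sedanolide libraries at 48.4, 52.3 and 52.1 CPM. The spread within each group was small and the groups did not overlap. Its log2 fold change was 0.29 ± 0.10 (SE), below the fold threshold, with an adjusted p of 0.327 (edgeR, Benjamini-Hochberg). Within sides the differences were 0.30 and 0.31 on the log2 scale.

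ABCC1 (ENSG00000103222, chr16:15949138-16143257, plus strand) encodes an exporter of glutathione conjugates and leukotrienes. It was at 107, 107 and 68.4 CPM in controls and at 81.9, 103 and 157 CPM with sedanolide. The groups overlapped, and in each of them the libraries of side A were above those of side B. Its log2 fold change was 0.28 ± 0.28 (SE), with an adjusted p of 0.728 (edgeR, Benjamini-Hochberg). Within side A sedanolide was 0.56 higher and within side B 0.42 higher on the log2 scale. With the side as a term the value was 0.50 ± 0.11 (SE), with an adjusted p of 0.0388 (edgeR), which is under the fold threshold. Without sedanolide 3, the sedanolide library of side A, the log2 fold change over both sides was -0.024.

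ABCC5 (ENSG00000114770, chr3:183919934-184017939, minus strand) encodes an exporter of cyclic nucleotides and nucleotide analogs. Controls lay at 36.5, 43.5 and 31.4 CPM and sedanolide libraries at 35.4, 36.4 and 53.0 CPM. As with ABCC1, the highest value in each group was a library of side A and the groups overlapped. ABCC5 had a log2 fold change of 0.16 ± 0.20 (SE), with an adjusted p of 0.784 (edgeR, Benjamini-Hochberg), which was -0.052 without sedanolide 3. The differences within sides A and B were 0.41 and 0.19, and with the side as a term the adjusted p was 0.161 (edgeR).

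ABCB1 (ENSG00000085563, chr7:87503017-87713323, minus strand), which encodes P-glycoprotein, was at 105, 104 and 97.0 CPM in controls and at 92.6, 97.7 and 104 CPM with sedanolide. The ranges overlapped almost fully. Its log2 fold change was -0.06 ± 0.11 (SE), with an adjusted p of 0.866 (edgeR, Benjamini-Hochberg). An interval of 2 standard errors around this value ran from -0.27 to 0.16, which leaves a 1.5-fold change in either direction outside. The standard error was derived from the test statistic, so this interval is approximate. In the TPM table the log2 fold change was -0.27 ± 0.17 (SE). There an interval of 2 standard errors ran from -0.62 to 0.07, which includes a 1.5-fold decrease.

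ABCC6 (ENSG00000091262, chr16:16149565-16223522, minus strand) encodes a transporter required for ATP release from hepatocytes, whose loss causes pseudoxanthoma elasticum. Its controls were at 49.2, 47.5 and 38.9 CPM and its sedanolide libraries at 31.5, 29.1 and 34.5 CPM. Every sedanolide library was below every control. ABCC6 had a log2 fold change of -0.51 ± 0.14 (SE) that was not called (adjusted p = 0.204, edgeR, Benjamini-Hochberg). With the side as a term it was -0.42 ± 0.09 (SE), with an adjusted p of 0.0429 (edgeR) and under the fold threshold. ABCC6 shares near-identical sequence with the pseudogenes ABCC6P1 and ABCC6P2, and its counts were not whole numbers in 5 of 6 libraries. ABCC6P1 held 397 to 805 counts, which was 62.6% to 77.5% of those of ABCC6, and ABCC6P2 held 85.7 to 131 counts. Their log2 fold changes were -0.52 and -0.45, neither called, so the level of ABCC6 is uncertain to the extent that reads were divided among these genes.

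ABCC10 (ENSG00000124574, chr6:43427366-43450427, plus strand) encodes an exporter of taxanes and lipophilic anions. Controls were at 35.3, 32.4 and 31.9 CPM and sedanolide libraries at 25.8, 25.8 and 28.2 CPM. All sedanolide libraries were lower than all controls. Its log2 fold change of -0.32 ± 0.11 (SE) was not called (adjusted p = 0.316, edgeR, Benjamini-Hochberg). It shares 76 exonic bases with DLK2 on the opposite strand, which held 84 to 107 counts per library. The libraries were directional, but whether the counting used strand is not given in the sources used here.

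ABCG2 (ENSG00000118777, chr4:88090150-88231628, minus strand), which encodes the breast cancer resistance protein, was near the detection limit. It had 6, 8 and 6 counts in controls and 10, 20 and 12 counts with sedanolide. The filter needed 0.477 CPM in 3 libraries, which 0 of 3 controls and 3 of 3 sedanolide libraries reached. The log2 fold change was 0.78 ± 0.34 (SE), with an adjusted p of 0.428 (edgeR, Benjamini-Hochberg). ABCG2 did not pass the filter without sedanolide 2 and had no row in the TPM table, so a difference was not established at this depth.

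**Figure D2:**
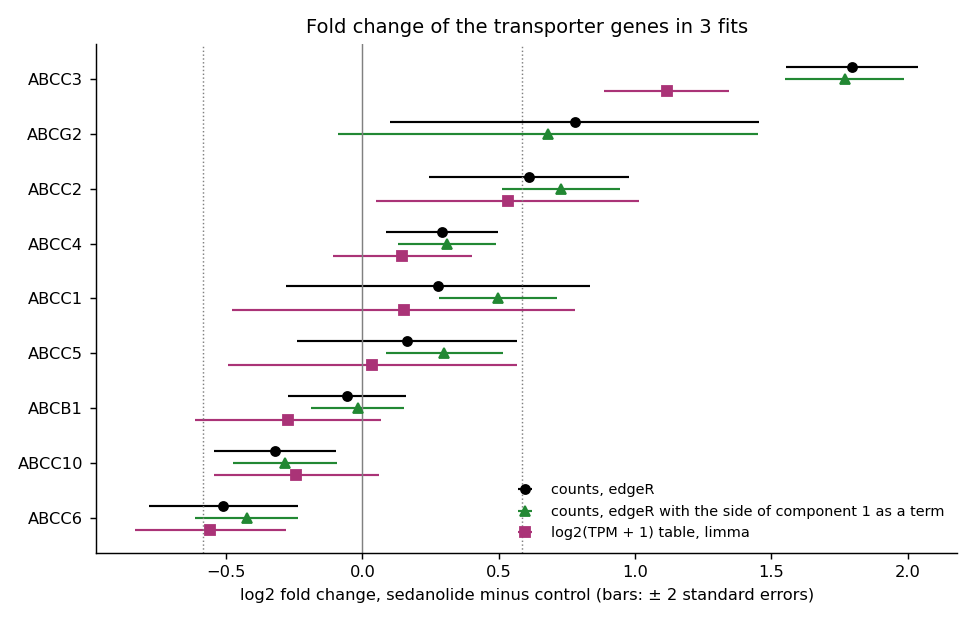
Log2 fold change, sedanolide minus control, of each transporter in 3 fits, with bars of 2 standard errors to each side and dotted lines at a fold change of 1.5. ABCC3 lies at 1.80 in the counts and at 1.12 in the TPM table. The points of ABCC2 and of ABCG2, which was near the detection limit, are beyond the threshold line in both count fits. Their bars cross that line in the fit without the side as a term. In the TPM table ABCC2 is inside the line, at 0.53.

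Levels can be compared between genes only per transcript length, for which the authors' TPM (transcript abundance per length, scaled to a fixed total) were used. ABCC2 led in both groups, with 91.7 ± 25.5 TPM in controls and 132 ± 31.4 TPM with sedanolide (SD, n = 3). In controls ABCC6 followed at 44.6 ± 4.81 and ABCB1 at 41.0 ± 4.18 TPM, whose ranges overlapped, and ABCC1 came next at 23.1 ± 5.86 TPM. ABCC10 (13.1 ± 1.89), ABCC3 (12.8 ± 0.300), ABCC4 (11.4 ± 1.27) and ABCC5 (11.2 ± 3.17) were at the bottom, and of the neighbours in this order ABCC3 and ABCC4 did not overlap while the others did. ABCC3 moved from rank 6 to rank 4 with sedanolide, at 31.6, 26.6 and 29.0 TPM against 12.8, 13.1 and 12.5 TPM in controls. At that level its range overlapped those of ABCC6, ABCB1 and ABCC1. By CPM per kilobase of the canonical transcript, the order in controls differed, with ABCB1 (19.6 ± 0.842) and ABCC1 (14.4 ± 3.40) above ABCC6 (8.79 ± 1.07; SD, n = 3), whose range was below both of theirs. On that scale ABCC3 stood at rank 8 of 9 in controls (2.15 ± 0.0978) and at rank 5 with sedanolide (7.46 ± 0.634; SD, n = 3), and ABCG2 was last in both groups. The canonical lengths of ABCC3 and ABCC6 are 5693 and 5140 bases. The ratio of counts to TPM, described below, implied 1410 and 1502 bases in controls. So this scale places both genes lower than TPM do, relative to members near their canonical length.

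ABCC3 made up 5.24% ± 0.743 of the summed TPM of the 8 members in controls and 10.4% ± 2.29 with sedanolide (SD, n = 3). The share was 5.22%, 4.50% and 5.99% in the controls and 12.8%, 10.2% and 8.21% with sedanolide, with no overlap. In CPM per kilobase of the canonical transcript, with the limit on length given above, the share was 1.79% ± 0.303 in controls and 4.85% ± 1.04 with sedanolide. Relative to ABCC2, ABCC3 was higher with sedanolide by 0.64 on the log2 TPM scale, and relative to the 7 other members together by 1.06. The exact two-sided permutation test gave p = 0.1 for both ratios, the smallest value that 3 against 3 libraries allow. For the ratio to ABCC2 the groups nearly met, with the highest control at -2.56 and the lowest sedanolide library at -2.53 in log2 TPM. For the ratio to the other members these were at -3.97 and -3.48. With CPM per kilobase of the canonical transcript in place of TPM, these differences were 1.19 and 1.47. The fixed length cancels from the 1.19, which follows from the counts of ABCC3 and ABCC2 alone. The ABCC2 share was 36.5% ± 4.51 in controls and 45.8% ± 1.64 with sedanolide. The summed TPM of the 8 members were 249 ± 41.3 in controls and 287 ± 57.9 with sedanolide, and these overlapped (exact two-sided permutation p = 0.4). In CPM per kilobase the sums were 121 ± 14.5 and 157 ± 25.6, and every sedanolide library was above every control (exact two-sided permutation p = 0.1, the smallest possible).

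**Figure D3:**
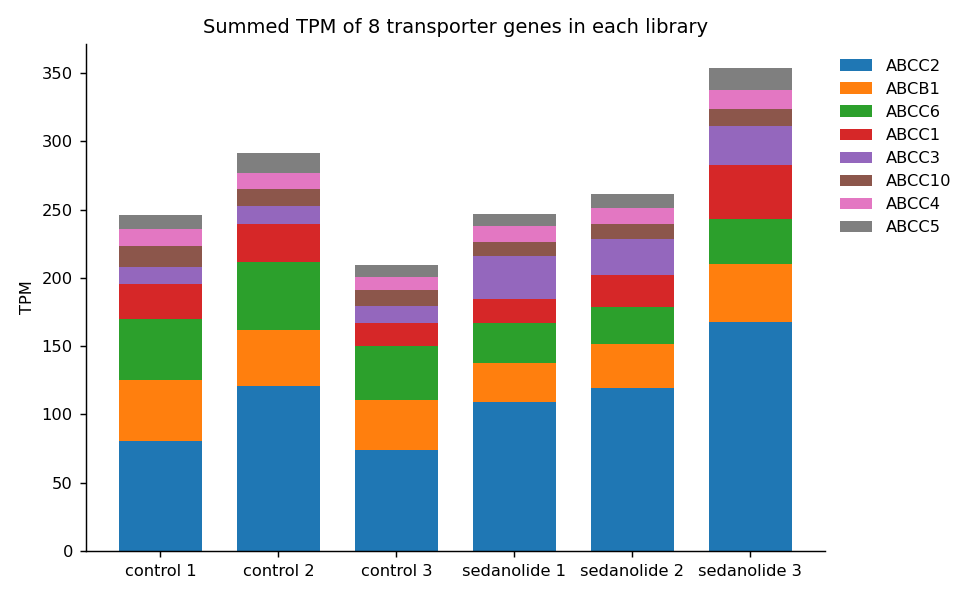
Stacked TPM of the 8 transporters of the TPM table in each library, each colour a gene. The ABCC3 segment is 12.5 to 13.1 TPM in the 3 controls and 26.6 to 31.6 TPM in the 3 sedanolide libraries, while the summed height in TPM overlaps between the groups. The same sum in CPM per kilobase did not overlap.

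The TPM table was also tested within itself with limma, on log2(TPM + 1). Of the 8 members in it, ABCC3 was called, beside 0.554% of 11006 rows, with a log2 fold change of 1.12 ± 0.11 (SE) and an adjusted p of 0.0176 (limma, Benjamini-Hochberg). Its call was lost when control 1, control 2, control 3, sedanolide 1 or sedanolide 2 was left out, with adjusted p from 0.0690 to 0.147 (limma), and the log2 fold change stayed between 1.06 and 1.18. ABCC6 was at -0.56 ± 0.14 and ABCC2 at 0.53 ± 0.24 (SE), with adjusted p of 0.185 and 0.465 (limma). The other 5 members had log2 fold changes from -0.27 to 0.15. In this table the sedanolide libraries were all below the controls for ABCC6, and the groups overlapped for the other 6 members apart from ABCC3.

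ABCC3 differed more in the counts than in TPM, 1.80 against 1.18 for the log2 ratio of mean TPM. The counts of a gene divided by its TPM follow the transcript length used by the quantification, so this ratio was compared between libraries, relative to the median over 10353 genes. For ABCC3 the log2 ratio was -0.67, -0.64 and -0.63 in controls and -0.21, -0.15 and -0.06 with sedanolide. The groups did not overlap and differed by 0.51 (exact two-sided permutation p = 0.1, the smallest possible). A larger absolute difference was found for 14 of the 10353 genes, and the first and 99th percentiles over all of them were -0.27 and 0.24.

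Scaled with 197 long genes that have a single annotated transcript, the ratio for ABCC3 corresponds to a length of 1410 ± 29.8 bases in controls and 1998 ± 118 bases with sedanolide (SD, n = 3). The canonical ABCC3 transcript has 5693 bases in 31 exons, and GENCODE 44 lists 18 transcripts of the gene. ABCC6, at 1502 ± 134 and 1448 ± 85.9 bases, was likewise far below its canonical length of 5140 bases. ABCC1, ABCC2, ABCC4 and ABCC5 lay between 4759 and 6236 bases, and ABCC10 and ABCB1 between 3206 and 4202 bases. For these 7 members the groups overlapped, with exact two-sided permutation p from 0.2 to 1. Counts of single transcripts were not analysed here, so which ABCC3 transcripts carried the reads was not tested.

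**Figure D4:**
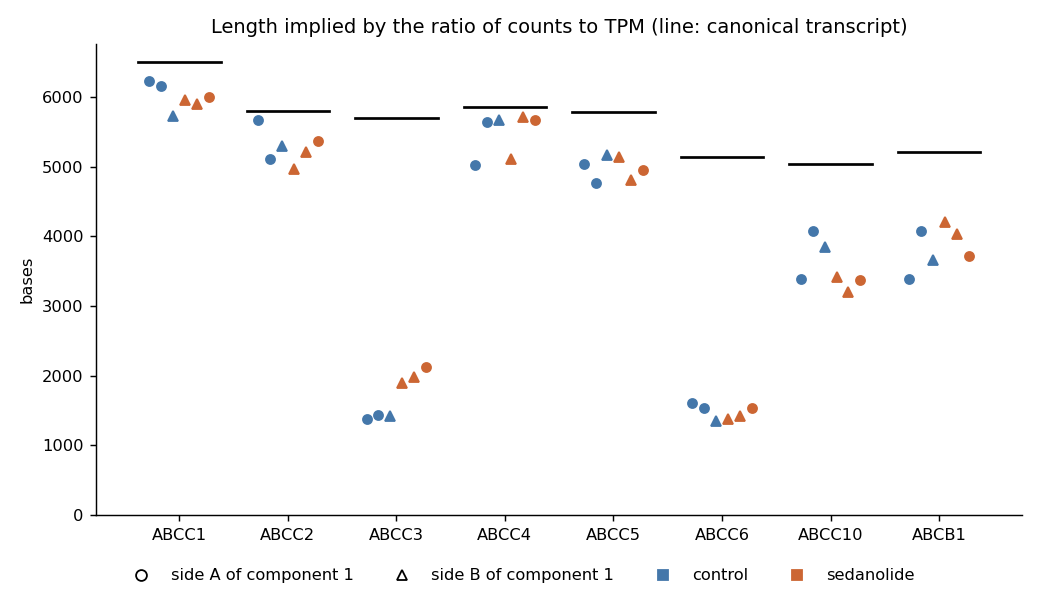
Transcript length in bases implied by the ratio of counts to TPM for 8 transporters in each library, with circles for side A, triangles for side B and a line at the length of the canonical transcript. ABCC3 lies at 1377 to 1435 bases in controls and at 1893 to 2125 bases with sedanolide, and the groups of the other 7 members overlap.

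The genes whose pattern over the 6 libraries was most like that of ABCC3 were found by the root mean square difference of centred log2 CPM. These were GCLM, the modifier subunit of the enzyme that makes γ-glutamylcysteine (0.139), SRXN1, which reduces overoxidized peroxiredoxins (0.142), MAP1A, a microtubule-associated protein (0.142), the SLR3 reporter (0.151) and GCLC, the catalytic partner of GCLM (0.166). The study names GCLM, SRXN1 and GCLC, like ABCC3, as upregulated in the same libraries. GCLM was at 26.5, 32.5 and 31.7 CPM in controls and at 113, 117 and 103 CPM with sedanolide. The SLR3 reporter, which reads ARE activity in these cells, was at 16.2, 14.6 and 18.0 CPM against 69.6, 68.8 and 59.4 CPM. Among the other members, the differences ran from 0.627 for ABCG2, which was near the detection limit, to 1.16 for ABCC6. The 5 nearest genes have the smallest differences by definition. The measure includes the difference between the groups, so it favours genes with a fold change like that of ABCC3.

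The sequence that NRF2 binds has the core TGACNNNGC, which was searched on both strands of RefSeq promoter windows (GRCh38.p14, 250 bases before to 50 bases after each start). Windows were found for 7 of the 9 members, in 14 windows, and ABCC1 and ABCC3 had none in the table. The core was in 3 of these 14 windows, for ABCC4, ABCC10 and ABCG2, and in 13.3% of all 35116 windows. The 3 matches are shown as the windows of the members that hold the core. ABCC3, the only member called in the main edgeR fit, had no window, so the matches cannot be set beside the calls. Each is written on the strand of the gene, with the core in capitals, and for ABCC4 the core is on the opposite strand.
ABCC4, chr13:95301582-95301610, minus strand: gtctcctcccGCCGCGTCAcccgtcggtc
ABCC10, chr6:43427388-43427416, plus strand: aggttataaaTGACGTTGCactaagggag
ABCG2, chr4:88159271-88159299, minus strand: gcagcgcttgTGACTGGGCaacctgtgcg

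Counted along the gene from the start site, the capitals begin at position -149 in ABCC4, at -143 in ABCC10 and at 2 in ABCG2. The windows of ABCC2, ABCC5, ABCC6 and ABCB1 held no match in these letters. The short core GCGTG of the aryl hydrocarbon receptor, searched in the same way, was in 7 of the 14 member windows, from 5 members, and in 36.5% of all windows. Binding was not measured in these libraries.

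Other genes of conjugate formation and transport were taken as lists. Of all 14104 genes tested, 95 were called in edgeR, 94 in limma-voom and 328 in DESeq2. An unadjusted p under 0.05 in edgeR was found for 1681 of the 14104. Of 11 tested of 19 further ABC genes of subfamilies B, C and G, 0 were called in edgeR and limma-voom and 1, ABCB6, in DESeq2, and 3 had an unadjusted p under 0.05 in edgeR. ABCB6, a porphyrin transporter, had a log2 fold change of 1.14 ± 0.29 (SE; adjusted p = 0.182, edgeR), and it shares 2841 exonic bases with a second annotated gene on the same strand. TAP2, a peptide transporter, was at 0.33 and ABCB4, the canalicular phospholipid floppase, at -0.42. Of 13 tested of 20 genes of subfamilies A, D, E and F, 0 were called in edgeR, limma-voom and DESeq2, and 1 had an unadjusted p under 0.05 in edgeR. The smallest p-values were those of ABCE1 (0.39), a ribosome recycling factor, ABCF2 (0.44) and ABCA2 (-0.37). The median log2 fold changes of these lists were 0.01 and -0.06.

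Of 11 solute carriers tested of 20 on the list, 3 were called higher and 1 lower in edgeR, and the median log2 fold change was -0.22. SLC51A, a subunit of the basolateral bile acid and steroid exporter, rose from 10.4, 9.40 and 9.89 CPM to 17.8, 17.8 and 18.0 CPM, a log2 fold change of 0.85 ± 0.12 (SE; adjusted p = 0.0300, edgeR). It shares 389 exonic bases with PCYT1A on the opposite strand, which held 1134 to 2239 counts. SLC51B, its partner subunit, was at -0.22 ± 0.24 (adjusted p = 0.761, edgeR) with overlapping groups. SLC22A18, an organic cation transporter, rose by 1.26 (adjusted p = 0.0351, edgeR), and SLCO4A1, an organic anion transporter, by 0.88 (adjusted p = 0.0483, edgeR). SLC22A9, an organic anion transporter of liver, had a log2 fold change of -0.72 and fell (adjusted p = 0.0488, edgeR).

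Of 22 tested of 35 conjugating and glutathione synthesis genes, 4 were called higher and 0 lower in edgeR, with 9 at an unadjusted p under 0.05 and a median log2 fold change of 0.09. The 4 were GCLM (1.87, adjusted p = 0.00324), GCLC (1.66, adjusted p = 0.00469) and the glutathione S-transferases GSTA1 (2.35, adjusted p = 0.0300) and GSTA2 (1.96, adjusted p = 0.0172), all from edgeR. The study names these genes from the same libraries, so their direction is not independent evidence. GSTA1 and GSTA2 are near-identical copies whose reads may be divided between them.

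Of 18 tested of 19 transcription regulators, 0 were called in edgeR, limma-voom and DESeq2, and 2 had an unadjusted p under 0.05 in edgeR. NR0B2, a repressor in bile acid signalling, was at -0.43 ± 0.11, KEAP1 at 0.65 ± 0.21 and the xenobiotic receptor NR1I2 at 0.28 ± 0.12 (log2 fold change ± SE), with adjusted p from 0.203 to 0.428 (edgeR). Of 13 tested of 14 membrane scaffold and trafficking genes, PDZK1, a PDZ protein that binds the ends of apical transporters, was called lower. It went from 53.4, 52.7 and 57.6 CPM to 28.6, 27.3 and 26.6 CPM, a log2 fold change of -0.99 ± 0.11 (SE; adjusted p = 0.0172, edgeR). The medians of these 2 lists were 0.03 and -0.06. In all, 9 listed genes were called, 0 of them without control 1 or sedanolide 2, 2 without control 2 or sedanolide 1, 4 without control 3, and 10 without sedanolide 3. SLCO4A1 and SLC22A9 were called in 0 of these 6 fits, and SLC51A, SLC22A18 and PDZK1 in 1, that without sedanolide 3.

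**Figure D5:**
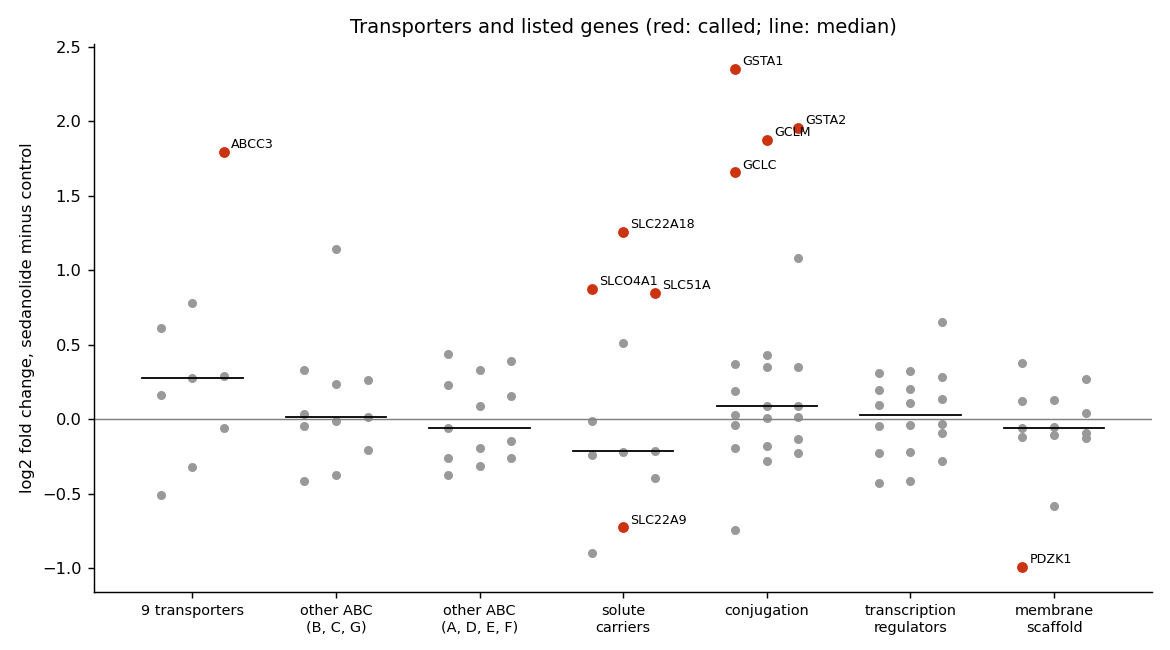
Log2 fold change, sedanolide minus control, of every tested gene of the transporters and 6 lists, with red points for genes past both thresholds and a line at each list's median. ABCC3, at 1.80, is the red point among the transporters, and the red points of the lists run from -0.99 for PDZK1 to 2.35 for GSTA1.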

How the data were processed

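RNA-seq was run on 3 control and 3 sedanolide libraries, and the authors' steps were FastQC, Trimmomatic, STAR on GRCh38 and RSEM, whose versions are not given in the sources used here. The deposited tables hold RSEM expected counts per gene, not normalized, and log2(TPM + 1) for 11006 rows, whose filter is not stated. RSEM divides reads that match several genes or transcripts between them, and TPM depend on the transcript lengths it used.

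Counts were rounded and fitted in R 4.3.3 with edgeR 4.0.16 (filterByExpr, TMM, robust quasi-likelihood test), with condition as the only term. Calls needed a Benjamini-Hochberg false discovery rate of 0.05 over 14104 features and a fold change of 1.5. The quasi-likelihood test of edgeR reports no standard error. Those given for edgeR are the absolute log2 fold change divided by the square root of the F statistic of the test. The log2 values were tested with limma 3.58.1. Alternatives were DESeq2 1.42.0, limma-voom, other scalings and filters, a replicate block, the side of the first component and leaving out each library. Fits were tested on simulated counts with the same dispersion for all genes and no split into sides, so that test does not cover the split. Positions and lengths are from GENCODE 44. Named genes are all members, the genes of each list past both thresholds or otherwise the 3 with the smallest p, and the 5 nearest to ABCC3. SLC51B, the marker genes and the genes that share exons or sequence with a named gene were named after their values were seen. The members and lists were chosen with earlier results of these data known.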

Additional observations from a re-analysis of the deposited data

How the results depend on the processing

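ABCC3 was higher with sedanolide in all 14 alternative settings for the counts, with log2 fold changes from 1.72 to 1.83. These settings include the main fit without a fold threshold, whose log2 fold change could not differ. It was not called with a replicate block (1.79, adjusted p = 0.302, edgeR), and leaving out each library gave 1.72 to 1.83 with 0 to 1 members called. The labels do not say whether the replicate numbers pair the libraries. Same-numbered controls and sedanolide libraries correlated at -0.13, -0.30 and -0.73 in their deviations from the group means. These deviations include the split into sides, so the correlations cannot decide whether the libraries were paired. With the replicate block 0 genes, 0 members and 0 listed genes were called (772 genes at an unadjusted p under 0.05). With the side of the first component as a term, 381 genes, 2 members and 14 listed genes were called, and ABCC2 passed both thresholds at 0.73. DESeq2 called 328 genes and the fit of all genes with a count 158. Without each library in turn, 0 to 136 genes and 0 to 10 listed genes were called in edgeR, and 0 to 1 members in the TPM table. At a count of 0 genes, 1067 genes without control 1 and 889 without sedanolide 2 had an unadjusted p under 0.05. Without each library in turn ABCC1 ranged from -0.024 to 0.46 and ABCC5 from -0.052 to 0.29, both negative without sedanolide 3. In the TPM table they ranged from -0.15 to 0.40 and from -0.20 to 0.23, negative without control 3 or sedanolide 3. With CPM per kilobase, an alternative chosen after seeing the data, the ratios of ABCC3 to ABCC2 and to the other members were higher with sedanolide by 1.19 and 1.47 on the log2 scale. A fixed length cancels from the difference in the ratio to ABCC2, so the 1.19 follows from the counts alone. The cause of the changes between settings was not tested. No other call of a member changed in the count fits. With 3 libraries a group, exact permutation tests cannot go below p = 0.1, and the 6 to 20 counts of ABCG2 limit what can be said of it.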
